A study of Mus musculus with 4 samples.

Results

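The genes described here build the sperm tail. They were taken from a list of 34 symbols for the axoneme, proteins that bind anchors of the fibrous sheath, and the transport system that assembles the tail. Of these, 32 were present among the 18419 genes of the deposited testis table, and Dnai1 and Dnai2 were skipped because the table carries them under their older symbols, Dnaic1 and Dnaic2. The members were 5 dynein heavy chains, 4 central apparatus genes, 4 cilia and flagella associated proteins (Cfap genes), 5 tektins, 4 radial spoke head genes, both ropporins, 3 genes of the axonemal ruler and nexin link, and 5 intraflagellar transport (IFT) genes. Of the 32, 30 reached a mean of 5 UMIs per 1000000 of the library (CPM) over the libraries. Cfap61 and Rsph4a did not, and are given by their counts.

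Droplet single-cell RNA sequencing was run on testes of ICR males, mice of an outbred stock, as 4 libraries of several pooled males, 1 for each treatment. A0 was the water control without alginate oligosaccharides (AOS, short sugar chains cut from an algal polymer). A10 received AOS at 10 mg per kg body weight, B0 received busulfan alone, and BA10 received busulfan plus AOS at 10 mg per kg. Busulfan is an alkylating drug toxic to spermatogonia. It was injected once, in B0 and BA10, into young males around weaning, and AOS or water followed by mouth from the next day in every group. Tubule pieces were rinsed free of sperm before a brief enzyme digestion, which limits how many finished sperm the libraries could hold. Because each group was 1 library of pooled mice, differences between animals cannot be seen, and no test between groups was possible. The groups are compared by levels with 95% exact Poisson intervals and by shares with exact binomial ones, which cover counting error only.

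The axoneme is a ring of doublet microtubules around a central pair. Inner and outer dynein arms on the doublets drive sliding, radial spokes carry signals between the central pair and the arms, and nexin links turn sliding into bending. Tektins run inside the doublet walls. Intraflagellar transport carries building material along growing cilia of every kind, so its genes are also used by cells with immotile cilia. Transcription of many axonemal genes starts in meiotic spermatocytes (SPC), well before the tail grows out of the spermatid (ST), and RFX factors, of which Rfx2 is the best known in the testis, bind their promoters.

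The libraries were not alike in depth or in cell types, and this touches every comparison with B0. The median cell held 12685 UMIs in A0, 10948 UMIs in A10, 4214 UMIs in B0 and 17989 UMIs in BA10. The shallowest cell kept had 7687, 6716, 2985 and 9013 UMIs, respectively. Cells were clustered without the genes described here and named by markers as spermatogonium (SPG)-, SPC-, ST- or somatic-like. In A0 and A10 nearly all cells were late SPC-like (35.2% and 35.8%), round ST-like (39.1% and 38.2%) or elongating ST-like (23.0% and 23.7%). In B0, 63.9% were Leydig-like, and in BA10, 76.0% were late SPC-like. Summed Leydig markers read 14526 CPM in B0 and 7.74 CPM in A0. Pairs of libraries shared 31 to 135 cell barcodes, at most 1.51% of the smaller library.

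Summed over the 32 genes, A0 stood at 12260 CPM (12242 to 12278), A10 at 12079 CPM, B0 at 4004 CPM (3979 to 4029) and BA10 at 12315 CPM. The sum was lowest in B0 and close together in the other libraries. It rests heavily on Ropn1l and Rsph1, which gave the most UMIs. Single genes were less alike: in BA10 over A0, 17 of the 30 were below 0 and 13 above, with a median log2 ratio of -0.35. Every functional group was lowest in B0. The tektins summed to 2152, 2008, 626 and 1831 CPM (A0, A10, B0, BA10). The IFT genes summed to 1040.1, 1046, 346 and 666 CPM, and the radial spoke genes to 2231, 2429, 955 and 3963 CPM. The reads come from transcript 3′ ends and are not divided by length, so levels of different genes are not per length and are not ranked.

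Ropn1l and Rsph1 gave the most UMIs. Ropn1l, a ropporin-like protein that binds kinase anchors of the fibrous sheath, stood at 3293, 3199, 1065 and 3717 CPM. Rsph1, a radial spoke head protein, stood at 1801, 1993, 807 and 3356 CPM. Both had their lowest level in B0 and their highest in BA10.

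**Figure D1:**
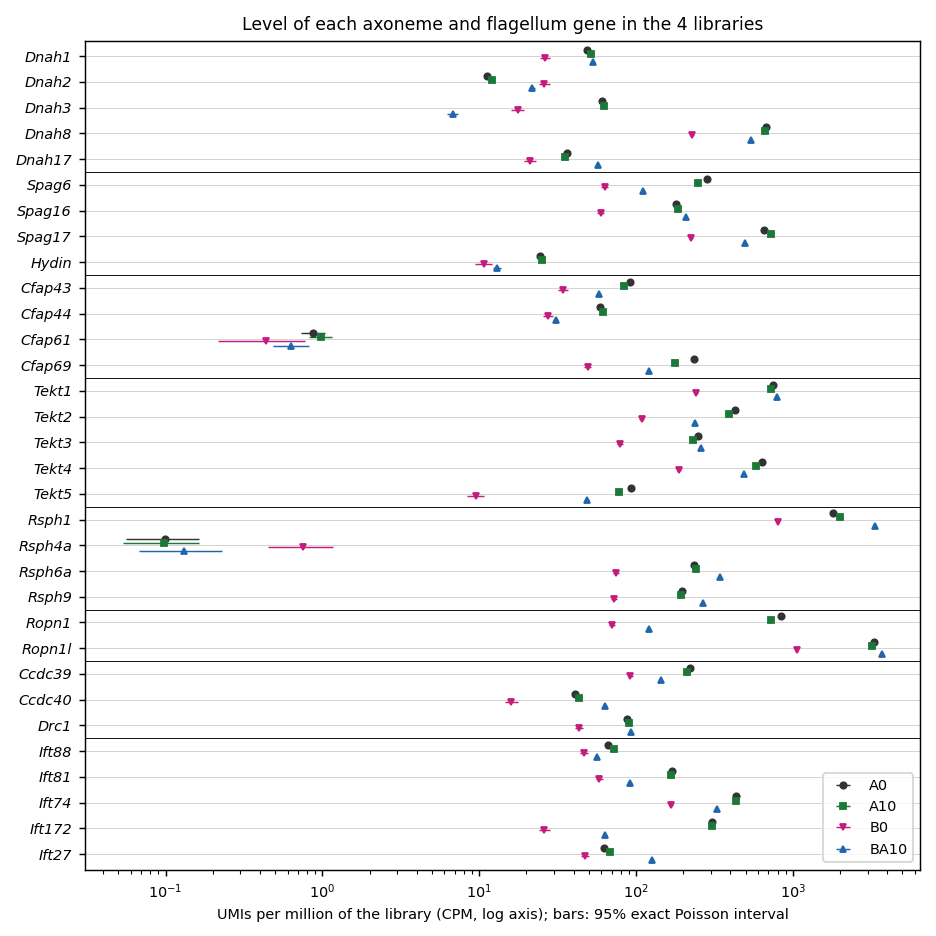
Level of each of the 32 genes in A0, A10, B0 and BA10, in CPM on a log axis, with 95% exact Poisson intervals; horizontal lines separate dynein arms, central apparatus, Cfap genes, tektins, radial spokes, ropporins, ruler and nexin, and IFT. B0 is the lowest library for most genes, Dnah2 and Rsph4a are highest there, and Dnah3 is lowest in BA10.

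Among the dynein heavy chains, which are the motors themselves, the arms did not follow one pattern. Dnah8, an outer arm chain of sperm, measured 677, 664, 228 and 539.7 CPM in the same order of libraries. Dnah17, the partner outer arm chain, measured 36.5, 35.4, 21.2 and 57.0 CPM. For both, B0 was lowest. The inner arm chain Dnah1 was at 48.9, 51.7, 26.3 and 52.9 CPM. Dnah3, another inner arm chain, was at 60.9 CPM in A0 and 62.3 in A10, at 17.6 in B0 and at 6.78 in BA10. Over all cells its low point was thus the library given both agents. Outside cluster 15, a set of cells described below, Dnah3 was at 2.30 CPM in B0 and 6.87 in BA10. Dnah2, also of the inner arms, was at 11.2 and 12.1 CPM in A0 and A10 and at 26.0 and 21.8 CPM in B0 and BA10, so it was the dynein heavy chain of the 5 that was higher in B0 than in A0.

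The central apparatus genes encode projections of the central pair. Spag17 measured 651, 727, 225 and 496 CPM in A0, A10, B0 and BA10, and Spag16 measured 179, 184, 59.7 and 207 CPM. Spag6 stood at 285, 247, 63.3 and 111 CPM. It has a near-identical copy on another chromosome, Spag6l, so reads could be split between them. Spag6l was at 559.9 CPM in BA10 and 128 CPM in B0, above Spag6 in both. Hydin, whose protein forms one such projection, was at 24.5, 25.1, 10.7 and 13 CPM.

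Tekt1, Tekt2, Tekt3 and Tekt4 stood at 748, 427, 249 and 634 CPM in A0 and at 725, 393, 229.7 and 583 CPM in A10. Their levels in B0 were 241, 109, 78.9 and 187 CPM, and in BA10 796, 237, 259.5 and 490.4 CPM, so Tekt1 and Tekt3 in BA10 exceeded A0 while Tekt2 and Tekt4 did not. Tekt5, a tektin of the mature sperm tail, was at 93.1, 77.5, 9.52 and 48.5 CPM. Ropn1, the ropporin proper, differed from its paralog Ropn1l, with 835, 722, 70.5 and 121 CPM.

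The ruler proteins Ccdc39 and Ccdc40 set the spacing of dyneins along the doublet. Ccdc39 was at 219.5, 210.4, 92.2 and 145 CPM and Ccdc40 at 40.6, 43.2, 16.0 and 63.4 CPM in A0, A10, B0 and BA10, so the pair differed in BA10, one below A0 and one above. Drc1, of the nexin link, was at 87.7, 90.2, 43.1 and 92.3 CPM. Among the Cfap genes, Cfap43 and Cfap44, which tether inner arm dyneins, were at 91.7, 83.6, 34.3 and 57.9 CPM and at 59.3, 61.2, 27.4 and 30.7 CPM. Cfap69 was at 236, 178, 49.1 and 121 CPM.

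Radial spoke heads come in a form for motile cilia and a form for sperm. Rsph6a, the sperm form, was at 233, 241, 74.8 and 341 CPM. Rsph4a, the cilium form, had 15, 14, 19 and 12 UMIs in the 4 libraries, which is 0.0995 CPM in A0 and 0.750 CPM (0.452 to 1.17) in B0. Rsph9, present in both, was at 197, 195, 72.8 and 266 CPM. Cfap61 had 132, 140, 11 and 58 UMIs.

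The 5 IFT genes belong to the train that carries cargo towards the tip. Ift74 stood at 434, 435, 168 and 327 CPM and its binding partner Ift81, with which it carries tubulin, at 170.1, 168, 58.5 and 92.2 CPM. Ift88 was at 66.1, 72.1, 46.8 and 56.4 CPM. Ift172 had the widest range of the 5, at 307, 304, 26.0 and 63.3 CPM. Ift27, a small GTPase of the train, was at 62.6, 67.9, 47.3 and 127 CPM and was the IFT member whose level in BA10 lay above that in A0.

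Within A0, where late SPC-, round ST- and elongating ST-like cells were all present, the 30 genes divided by stage. Levels were highest in the late SPC-like class for 18, in the round ST-like class for 9 and in the elongating ST-like class for 3. Each of the 30 genes was highest in the same class in A10, whose cells were clustered together with those of A0. By single clusters, 13 of the 30 had the same highest cluster in both. The highest cluster could lie outside the highest class. In A10 that of Hydin was elongating ST-like and that of Tekt5 round ST-like, and Ift74 was highest in round ST-like cluster 3 in both libraries. Under coarser or finer clusters, fewer variable genes, the axoneme genes left in, or doublet calls removed, the number higher in ST- than in SPC-like cells as a whole was 7 to 9 of 30, against 9 in the main clusters.

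The early group held the outer arm and spoke genes. In A0, Dnah8 measured 1344 CPM in late SPC-like cells, 328 in round and 70.6 in elongating ST-like cells. Rsph1 went from 3489 to 920.5 to 279 CPM and Ccdc39 from 424 to 125 to 15.1 CPM. The same 3 classes of A10 gave 1246, 307 and 67.1 CPM for Dnah8, so the same order of classes was seen in both libraries. Dnah1, Dnah2, Dnah17, Ccdc40, Rsph6a and Ift27 followed this course, and Dnaic2, the intermediate chain under its older symbol, did too (113, 25.7 and 5.37 CPM in A0).

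The round spermatid group held Dnah3, Spag6 and 4 of the 5 tektins among others. Dnah3 was at 17.3 CPM in late SPC-like, 122 in round ST-like and 20.7 in elongating ST-like cells of A0, and Spag6 was at 111, 557 and 66.3 CPM. Tekt2 was at 246, 733 and 149 CPM. Each of these 3 was higher in round ST-like cells than in the class before and the class after. Tekt3 was nearly level between late SPC- and round ST-like cells, at 291 and 307 CPM. Dnah3 and Tekt2 were highest in cluster 7 of A0 and Spag6 in cluster 3, both round ST-like.

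The late group was small. Ropn1 went from 132 CPM in late SPC-like to 1188 in round and 1526 in elongating ST-like cells of A0, and Tekt5 from 48.9 to 97.3 to 172 CPM. Ift172 was at 106, 248 and 841 CPM and reached 1543 CPM in cluster 23, the cluster latest by stage markers. Its IFT partners went the other way: Ift88, Ift81, Ift74 and Ift27 were all lower in elongating than in round ST-like cells, for example Ift74 at 145 against 472 CPM. Cluster 23 held 188 cells of A0. Prm1, a protamine of elongating ST, read 1956 CPM in the late SPC-like cells of A0 against 44598 CPM in its elongating ST-like cells, and the part of free RNA in these levels was not tested.

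**Figure D2:**
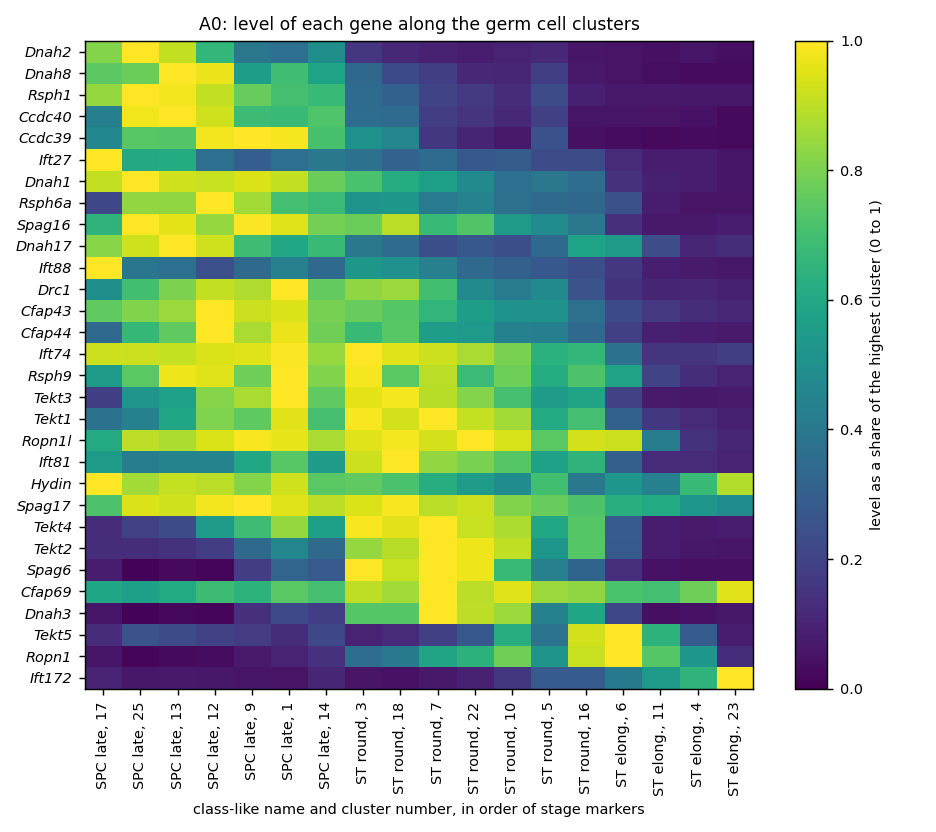
Level of the 30 genes in the SPC- and ST-like clusters of A0, each scaled to its own highest cluster (0 to 1), with clusters ordered from left to right by stage markers. Dnah2, Dnah8, Rsph1 and the Ccdc ruler genes are highest at the left, Tekt2, Tekt4, Spag6 and Dnah3 in the middle, and Tekt5, Ropn1 and Ift172 at the right.

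AOS alone was compared with the control to see its effect in an undamaged testis. No member differed by 2-fold between A10 and A0. The median log2 ratio of the 30 genes was -0.01 (all genes, -0.02), with a range from -0.41 for Cfap69 to 0.16 for Spag17. Over all 9967 genes at or above 5 CPM, 0.0401% were higher and 0.0702% lower by 2-fold. Cfap69 was at 236 CPM (234 to 238) in A0 and 178 CPM (175 to 179.7) in A10. Within classes the picture was the same, with a median of -0.02 in SPC-like and -0.05 in ST-like cells.

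Busulfan alone was compared with the control to see what the drug leaves. Of the 30 genes, 25 were lower by 2-fold in B0 and 1 was higher, against 23.6% and 36.9% of all genes tested. The median log2 ratio was -1.53, where that of all genes was 0.23. The lowest ratios belonged to the late group: Ropn1 at -3.55 (-3.62 to -3.47), Ift172 at -3.51 (-3.63 to -3.39) and Tekt5 at -3.16 (-3.35 to -2.97). The single gene past 2-fold upward was Dnah2 at 1.15 (0.98 to 1.32). Dnah1, Dnah17, Ift88 and Ift27 stayed inside 2-fold at -0.87, -0.76, -0.49 and -0.40. Fewer cells of a type and less RNA per cell cannot be told apart in levels pooled over a library.

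Few cells of B0 carried these genes. After each cell was thinned to 2985 UMIs, the depth of the shallowest, at least 5 of the 32 genes were detected in 98.3% of A0 cells, 98.1% of A10 cells, 16.5% of B0 cells (770 of 4659) and 98.3% of BA10 cells. The limit of 5 was chosen after the values were seen. Among the Leydig-like cells, 22 of 2977 reached 5 genes, as did 54.4% of the early SPC-like cells and 2.09% of the SPG-like cells of that library.

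Most of the axonemal UMIs of B0 came from one set of 555 cells, cluster 15. It held 11.9% of the cells of B0, 26.2% of its UMIs and 75.3% of the UMIs of the 32 genes. The cluster also held 189 cells of BA10. It was left unnamed because connective tissue genes such as Dcn and Gsn led it over all libraries. This bar on a germ cell name was added after the clusters were seen. Without it the name would have been late SPC-like, at a marker score of 0.475 against 0.142 for round ST. In the cluster 10 late SPC markers were detected, and 552 of the 555 cells had 5 or more of the genes. The summed level there was 11506 CPM (11424 to 11587), and outside it B0 stood at 1339.8 CPM. Within B0 the cluster was not high in Dcn, at 173 CPM against 208 CPM outside it, whereas its BA10 cells read 1005 CPM against 22.1 CPM outside. With finer clusters (resolution 2), 438 cells of B0 fell in one late SPC-like cluster, 85 in a round ST-like cluster and 26 in a cluster led by Dcn, while the main clusters placed 9 cells of B0 in the round ST-like class. The Leydig-like cells contributed 50% of the UMIs of B0 and 4.47% of those of the 32 genes.

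**Figure D3:**
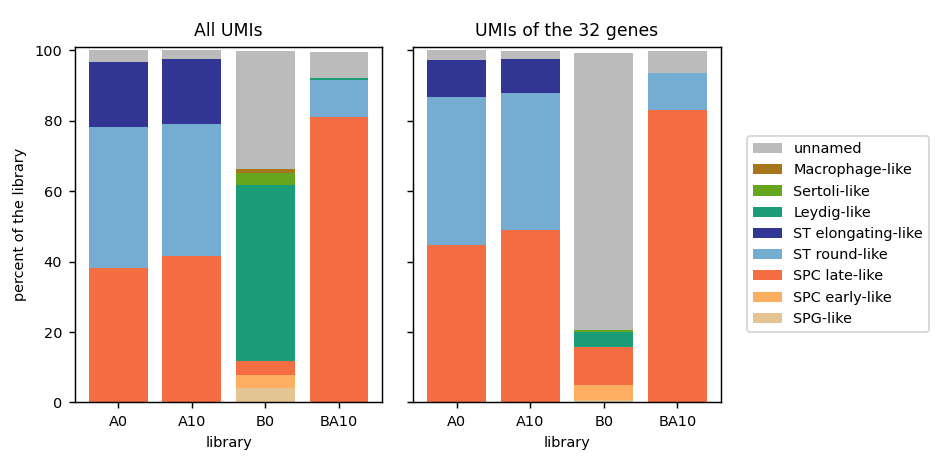
Share of all UMIs (left) and of the UMIs of the 32 genes (right) held by each class-like group of cells in each library, in percent. Leydig-like cells hold 50% of all UMIs in B0 and 4.47% of those of the 32 genes, whereas the unnamed cells hold 78.4%.

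With a common lower limit on UMIs per cell, the comparison changed. Cells with 9013 UMIs or more, the limit of BA10, numbered 448 in B0 (9.62%), of which 359 belonged to cluster 15. Of the 2977 Leydig-like cells of B0, 4 were kept, so the limit selected cell types as well as depth. Medians among the kept cells still differed, at 13589 UMIs in A0, 11693 in B0 and 17989 in BA10. Over such cells in both libraries the median ratio of B0 to A0 was -0.06, and 3 genes were lower by 2-fold in place of 25 (Tekt5, Ropn1 and Ift172), a share near the 10.9% of all genes tested at this limit. None of the 30 was higher, against 14.4% of all genes. Rsph1 was then at 2169 CPM in B0 and 1825 in A0, and Drc1 at 121 and 88.5. Ropn1 was at 215 and 836 CPM, and Ift172 at 50.1 and 294 CPM. Without cluster 15, a setting added after the data were seen, the median went to -3.09 and 27 genes were lower, against 31.5% of all genes.

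Busulfan plus AOS was compared with busulfan alone to see what AOS added. Across all cells 18 of the 30 genes were higher by 2-fold in BA10 and 1, Dnah3, was lower, against 19.3% and 32.5% of all genes tested. The median log2 ratio was 1.19 (all genes, -0.13). The highest ratios were Tekt5 at 2.23 (2.03 to 2.44), Rsph6a at 2.18, Rsph1 at 2.05 and Ccdc40 at 1.92. Dnah3 was at -1.26 (-1.48 to -1.03), but at 0.13 with each cell scaled to the same total and at 1.25 without cluster 15.

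The sign of that median turned with the limit on UMIs per cell, which also removed nearly all Leydig-like cells of B0. Among cells of 9013 UMIs or more the median was -0.23, no gene was higher by 2-fold and Dnah3, Hydin and Cfap44 were lower, against 1.32% and 12.6% of all genes, so neither count stood far from the background. Of the 30 genes, 18 took the opposite sign. Rsph1 remained higher in BA10, at 3356 against 2169 CPM, as did Rsph6a at 341 against 218, Ift27 at 127 against 70.4 and Tekt5 at 48.5 against 27.6. Dnah8 was at 539.7 CPM in BA10 and 634 in B0. Without cluster 15 the median was 3.01 and 28 genes were higher, against 31.8% of all genes. The cells captured and their depth moved with the result, and their part in it cannot be told apart from that of AOS.

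**Figure D4:**
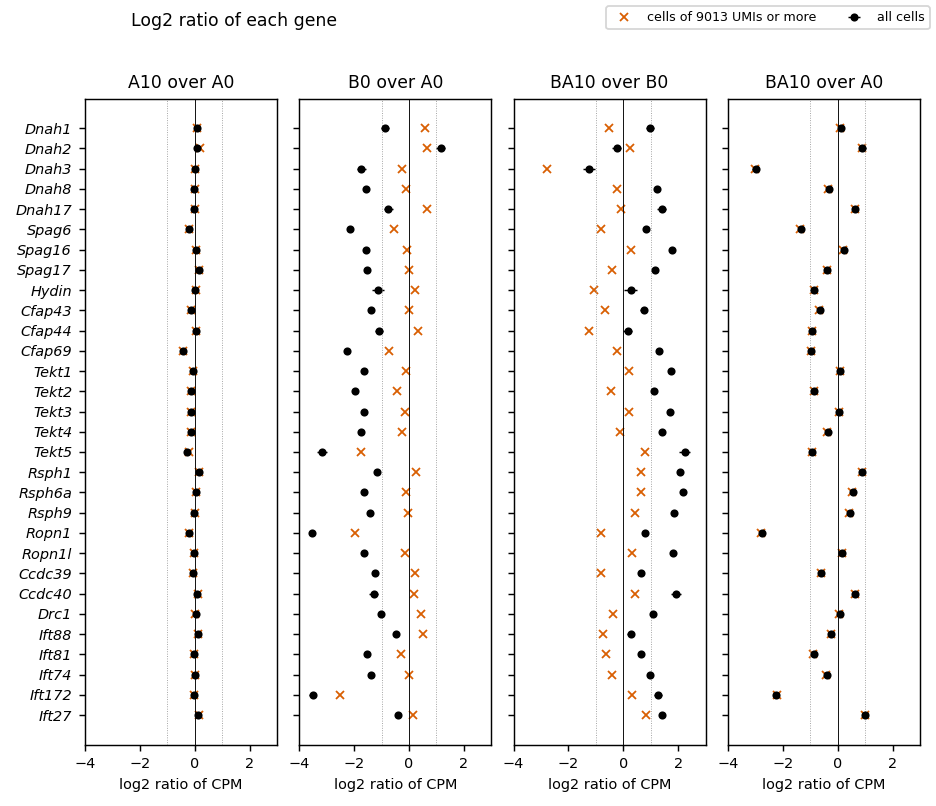
Log2 ratio of each of the 30 genes in each comparison, over all cells (black, with the interval from both exact Poisson intervals) and over cells of 9013 UMIs or more (orange crosses); dotted lines mark 2-fold. The 2 settings coincide for A10 over A0 and BA10 over A0 and part for both comparisons with B0.

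BA10 was next set beside the control. By 2-fold, Ift27 was higher at 1.01 (0.96 to 1.07), and 4 genes were lower: Dnah3 at -2.99, Ropn1 at -2.77, Ift172 at -2.26 and Spag6 at -1.35. The shares over all genes tested were 18.3% higher and 16.4% lower. The median of the 30 genes was -0.35 and that of all genes 0.42, so relative to all genes the median was -0.77, 12 genes were lower by 2-fold and 0 were higher, and the shares over all genes became 5.88% higher and 21.4% lower. With cells of 9013 UMIs or more, 4 genes were again lower, against 18.6% of all genes, and Ift27 was inside 2-fold. It was inside 2-fold too without the cells called as doublets.

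The ratio of BA10 to A0 was compared between genes of different stages. Grouped by their highest class in A10, which is not part of the ratio, the 18 late SPC genes had a median BA10 to A0 ratio of 0.09, the 9 round ST genes -0.85 (-2.99 to 0.17) and the 3 elongating ST genes -2.26. Among the round ST genes, Ropn1l, Tekt1 and Tekt3 were not below A0, at 0.17, 0.09 and 0.06. These 3 were not higher in ST-like than in SPC-like cells of A10 as a whole, at log2 ratios of -0.22, -0.19 and -0.39. Nor was Ift81, also a round ST gene, at -0.00 (-0.05 to 0.05), but its BA10 to A0 ratio was -0.88. In B0 to A0 the medians were -1.20, -1.74 and -3.51. Across the 30 genes the ST to SPC ratio of A10 and the BA10 to A0 ratio had a Pearson correlation of -0.82 and a Spearman correlation of -0.73, and -0.71 by Pearson without Ropn1 and Dnah3. Genes are not independent replicates, the A10 and A0 cells fell in the same clusters, and the cell types captured moved with it: round ST-like cells made 39.1% of A0 and 13% of BA10, and elongating ST markers summed to 45191 CPM in A0 and 1489 CPM in BA10.

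**Figure D5:**
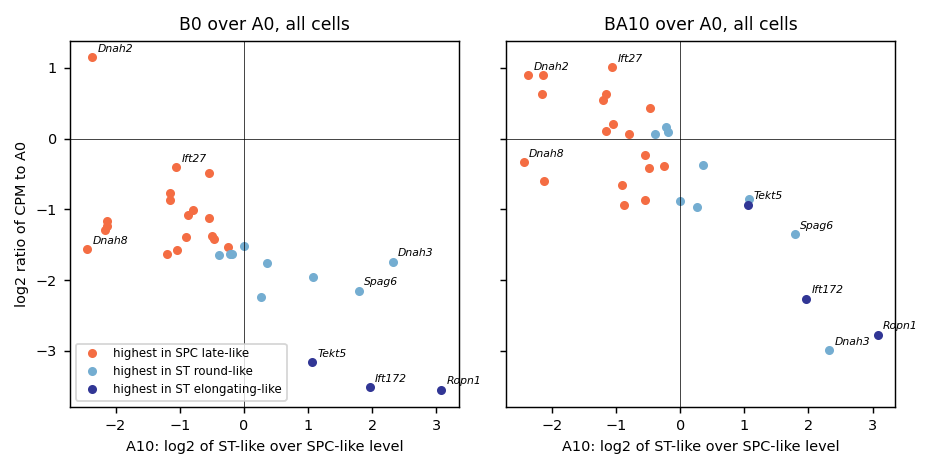
Log2 ratio of each of the 30 genes in B0 (left) and BA10 (right) over A0 against its log2 ratio of ST-like over SPC-like level within A10, coloured by the class where it was highest in A10. Genes further to the right tend to lie lower in both panels, with Ropn1, Ift172 and Dnah3 lowest in BA10 and Dnah2 apart in B0.

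BA10 and A0 were also compared inside classes. The SPC-like cells of BA10 lay mostly in clusters 2 and 8 and those of A0 in clusters 1, 9, 12, 13, 14, 17 and 25, so the classes share a name and not a cluster. Between 2875 and 3143 SPC-like cells the median ratio was -0.45, with 8 of 30 genes lower by 2-fold and 0 higher, against 9.61% and 1.99% of all genes tested there. The lower genes were Dnah3, Ropn1, Cfap44, Ccdc39, Dnah8, Hydin, Spag6 and Cfap43. On a score from stage markers, where later is higher, clusters 2 and 8 stood at 2.86 and 2.56. The A0 clusters ran from 2.54 to 3.21, so stage was not matched. In A0 cluster 25, at 2.65, Dnah3, Ropn1 and Spag6 were at 1.72, 39.3 and 8.02 CPM. Their BA10 levels were 2.51, 36.5 and 49.6 CPM. The other lower genes had their lowest A0 cluster among ST-like cells, which does not give their level in SPC-like clusters of a similar score. The part of stage was not tested. Ccdc39 was at 158 CPM in BA10 and 424 in A0, and Dnah8 at 583 and 1344 CPM. Ropn1 was at 36.5 and 132 CPM, and here Prm1 also differed, at 37.4 against 1956 CPM. The part of free spermatid RNA in the Ropn1 value was not tested. Ropn1l, Rsph1, Rsph6a, Tekt1 and Dnah17 had ratios between -0.02 and 0.09 within these cells.

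Round ST-like cells of BA10 numbered 493, of which 476 formed cluster 19, and those of A0 numbered 3497, nearly all in other clusters. The median ratio was -0.04, and 3 of 29 genes were lower by 2-fold and 0 higher, against 7.62% and 5.87% of all genes. Ift172 was at 56.2 CPM in BA10 and 248 in A0, Dnah3 at 41.4 and 122, and Tekt5 at 45.1 and 97.3. Spag6, low in BA10 as a whole, was at 612 CPM in these cells and 557 in those of A0. Tekt1, Tekt2, Tekt3 and Tekt4 were within 0.11 of 0 on the log2 scale. Of these genes, Spag6 and the 4 tektins were nearer to the control level than Dnah3 and Ift172. The class was not matched for stage. On the score from stage markers, cluster 19 stood at 3.41 and the main A0 clusters at 3.44 to 3.87. Within A0, Ift172 fell to 75.1 CPM in cluster 18, also round ST-like. Prm1 read 393 CPM in the round ST-like cells of BA10 and 7178 in those of A0. The part of stage in these differences was not tested.

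Of the 30 genes, Dnah2 was the one whose level in B0 was higher in Leydig-like cells than in cluster 15. It measured 35.1 CPM (31.9 to 38.5, 444 UMIs) in Leydig-like cells and 16.9 CPM (112 UMIs) in cluster 15, and 67.4% of its UMIs in B0 were in the Leydig-like cells. The 43 late SPC-like cells of B0 read 29.1 CPM (19.5 to 41.8, 29 UMIs), which overlaps the Leydig-like level. Sertoli-like cells had 4 UMIs and macrophage-like cells 0. In BA10 this order was not seen, since the 45 Leydig-like cells gave 28.7 CPM (15.3 to 49.1, 13 UMIs) and cluster 15 gave 32.4 CPM (27.1 to 38.3). The gene lies on chromosome 11 from 69420809 to 69549110 on the minus strand (mm10, GENCODE M21).

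IFT genes varied in this respect. The Leydig-like level as a share of that in cluster 15 was 60.1% for Ift27, 28.0% for Ift172 and 16.4% for Ift88, and 5.97% and 3.89% for Ift81 and Ift74. For Ropn1l it was 2.70%, for Rsph1 2.72% and for Dnah8 1.85%. The share thus differed between genes, from 0.714% for Ccdc39 to 208% for Dnah2. Rsph4a had 16 of its 19 UMIs of B0 in Leydig-like cells and 0 in cluster 15. Ift88 was highest in early SPC-like cells of B0, at 213 CPM, and Rsph1 was already at 1898 CPM there, while Spag6, Ropn1 and Dnah3 had 4 UMIs, 4 UMIs and none, respectively. Over those cells a count of 0 for Dnah3 allows up to 3.73 CPM by the exact Poisson interval.

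The wider pathway was also lower in B0. Of a list of other axonemal and IFT genes, 90 were in the table and 87 reached 5 CPM. None differed by 2-fold between A10 and A0, against 0.0401% of all genes higher and 0.0702% lower. Rsph3a was the highest there at 0.46. In B0 over A0, 49 were lower and 1 higher, against 23.6% and 36.9% of all genes, with a median of -1.09. In BA10 over B0, 43 were higher and 1 lower, against 19.3% and 32.5%, with a median of 0.99. Ccdc63 of the outer arm docking family was at 267 CPM in A0 and 37.3 in B0, and Dnajb13, a radial spoke protein, at 337 and 74.6. Ift20, which also serves at the Golgi apparatus, was the gene higher by 2-fold in B0, at 309.7 against 73.1 CPM. Zmynd10, needed to assemble dynein arms before they enter the tail, was at 298 CPM in A0, 119.8 in B0 and 684 in BA10. Dnah9 was the gene lower by 2-fold in BA10 than in B0, at 2.27 against 6.59 CPM, and Cfap100 was at 6.36 CPM in BA10 against 38.9 in A0. The intermediate chains under their older symbols were at 65.0, 71.9, 32.9 and 61.3 CPM for Dnaic1 and 55.3, 56.5, 24.2 and 79.1 CPM for Dnaic2.

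Of the transcription factors that act on axonemal genes, Rfx2 was at 68.3, 65.2, 28.0 and 117 CPM in the 4 libraries. It had its lowest level in B0 and its highest in BA10, as did Rsph1, Ropn1l and several other members, Spag16, Rsph6a and Rsph9 among them. Many members did not: Spag6, Hydin, Cfap44 and Tekt2, for example, were highest in A0 or A10. How many of all genes share this order was not counted. In BA10 over A0 the highest ratio of the 6 regulators was 0.77, below the upper quartile of all genes, 0.86. A link between Rfx2 and these genes was not tested. Rfx1 and Rfx3 did not differ by 2-fold between BA10 and B0 (-0.05 and -0.17) and lay at -1.03 and -1.16 in BA10 over A0. Rfx4 was at 29.8, 28.4, 11.9 and 22.9 CPM and Foxj1, the regulator of motile cilia, at 54.8, 46.6, 18.8 and 35.4 CPM. Crem, the activator of spermatid genes, was at 461, 423, 136 and 354 CPM.

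Promoter windows were searched for the letters these factors are known for. RefSeq windows of GRCm38.p6, from 250 bases before to 50 after a transcription start, matched 28 of the 32 genes. The RFX motif GTTGCC, read on both strands, was in the windows of 12 of the 28 genes (42.9%) and of 14.1% of the 27025 genes with a window. The cyclic AMP response element TGACGTCA, which is its own reverse complement, was in 0 of 28 and in 2.03% of all. A match is a description of the letters and not of binding. The following stretches, written 5′ to 3′ along the gene with each match on either strand in capitals, are shown because they come from genes of different stage groups that share it.
Spag16, chr1:69826839-69826884, plus strand: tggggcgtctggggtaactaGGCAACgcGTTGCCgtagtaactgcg
Spag6, chr2:18698965-18699010, plus strand: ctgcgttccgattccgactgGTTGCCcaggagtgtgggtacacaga
Hydin, chr8:110266944-110266976, plus strand: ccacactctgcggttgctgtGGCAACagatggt
Cfap44, chr16:44394760-44394798, plus strand: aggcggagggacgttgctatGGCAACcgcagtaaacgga
Tekt1, chr11:72361892-72361937, minus strand: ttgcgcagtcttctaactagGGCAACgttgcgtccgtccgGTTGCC
Tekt2, chr4:126325759-126325804, minus strand: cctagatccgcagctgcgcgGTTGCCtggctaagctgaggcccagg
Ropn1l, chr15:31453690-31453729, minus strand: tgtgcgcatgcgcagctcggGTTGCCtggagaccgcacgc
All 7 stretches lie before the RefSeq start they were taken from, but by the GENCODE M21 bounds those of Spag6, Tekt1 and Ropn1l lie inside the gene, and the end of that of Cfap44 reaches into it. Spag16 and Tekt1 each show the motif in both orientations within one stretch. Of the 12 genes, 9 held the site wholly before the start. These included genes of the late SPC group (Spag16, Hydin, Cfap44) and of the round ST group (Spag6, Tekt1, Tekt2, Ropn1l). Among the 3 elongating ST genes, Ift172 held it in its window but not wholly before the start, and Ropn1 and Tekt5 did not hold it.

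The share of cells with a UMI was compared with and without thinning. The median over the 30 genes was 78.7%, 75.3%, 12.9% and 80.2% of cells (A0, A10, B0, BA10), and after thinning to 2985 UMIs it was 39.8%, 38.8%, 7.44% and 26.9%. BA10 was thus the highest library before thinning and below A0 after it. Ropn1l was found in 97.3%, 97.4%, 34.7% and 99.2% of thinned cells, and Ropn1 in 71.4%, 70.8%, 5.73% and 22.1%. Dnah2 was found in 2.62%, 2.78%, 7.34% and 5.58%.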

How the data were processed

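The deposited table held, for 27060 cells and 18419 genes, natural log values of 1 plus UMIs per 10000 of the cell. Per the labels, the authors ran Cell Ranger 2.2.0 on mm10, and per their methods kept cells with at least 200 genes and genes in at least 3 cells. UMIs were recovered from the steps of the values (100% whole within 0.001) and summed per library or class. CPM is UMIs per 1000000. Ratios are log2 with 1 CPM added, over genes at a mean of 5 CPM or more. With 1 library a group no test was run, and "2-fold" is a size rule. Cells were clustered with scanpy 1.11.5 and leidenalg 0.10.2 (2000 variable genes, 30 components, 15 neighbours, resolution 1) without axonemal genes. Doublets called by Scrublet were kept in the main values (A0 8.06%, A10 8.66%, B0 0.0859%, BA10 1.27%), and the share in B0 is too low for the caller to have worked there. All members are named. Of the wider list, genes with the 3 highest and 3 lowest ratios were drawn on. The members and lists were chosen with earlier results of these data known. The ratio step alone was tested on simulated counts, with a far smaller added value than 1 CPM for the intervals and fold calls. Overlapping genes on the opposite strand were Lyrm1 (Dnah3), Glo1 (Dnah8), Pgs1 (Dnah17), Wdr3 (Spag17), Gsto1 and Gsto2 (Cfap43), Crnkl1 (Cfap61), Mrps18a (Rsph9), Ttc14 (Ccdc39) and Lrrc19 (Ift74), with Itprip on the same strand as Cfap43.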

Additional observations from a re-analysis of the deposited data

Results flagged for a closer look

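For 12 of the 30 genes the log2 ratio of AOS to its own control went one way without busulfan and the other way with it, both beyond their counting intervals. That is 40% of them, against 22.8% of all 9967 genes tested. In BA10 over B0, 28 of the 30 were above 0, with a median of 1.19 (all genes, -0.13). For these genes the rule thus turned mainly on whether A10 was below A0. B0 was 63.9% Leydig-like, and the part of cell types in the share was not tested. Genes with more UMIs have narrower intervals and pass this rule more easily, and the shares were not matched for level. The value given is BA10 over B0 minus A10 over A0, and the difference was not tested, since each group was 1 library. It was 2.50 for Tekt5, 1.84 for Ropn1l, 1.82 for Tekt3, 1.76 for Tekt1, 1.69 for Cfap69 and 1.51 for Tekt4. It was 1.26 for Dnah8, 1.24 for Tekt2, 1.01 for Spag6, 0.98 for Ropn1, 0.87 for Cfap43 and 0.71 for Ccdc39. In each, A10 was below A0, by 0.03 (Dnah8) to 0.41 (Cfap69) on the log2 scale, and BA10 above B0. All 5 tektins are among them. Among cells of 9013 UMIs or more, 8 of the 12 were lower in BA10 than in B0: Dnah8, Spag6, Cfap43, Cfap69, Tekt2, Tekt4, Ropn1 and Ccdc39.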

How the results depend on the processing

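No paired analysis was possible because each group is 1 library. Comparisons with B0 depended on which cells entered. With cells of 9013 UMIs or more, B0 over A0 had a median of -0.06 with 3 genes lower and 0 higher (all genes, 10.9% and 14.4%), and BA10 over B0 a median of -0.23, reversed, with 0 higher and 3 lower (1.32% and 12.6%). Without cluster 15 the medians were -3.09 and 3.01 with 28 higher and 0 lower in the latter (31.8% and 37.4%), and without cells outside the named classes -3.20 and 3.07 with 28 and 0, against 32.1% and 37.3% of all genes; both settings were chosen after seeing the data. With each cell scaled to the same total the medians were -2.43, 2.23 (0 lower, against 36.1% of all genes) and, for BA10 over A0, -0.28. With 10 CPM added they were -1.38 (0 higher, against 29.0%) and 1.08 (0 lower, against 25.2%), and BA10 over A0 had 0 higher, against 4.41%. Centred on all genes they were -1.76 (0 higher, against 32.9%), 1.31 and, for BA10 over A0, -0.77 with 0 higher and 12 lower (5.88% and 21.4%). BA10 over A0 also had 0 higher with cells of 9013 UMIs or more (15.1% of all genes) and without Scrublet calls (18.1%). Within SPC-like cells BA10 over A0 was -0.54 at resolution 0.5 and -0.38 with the axoneme genes left in. Thinned detection shares were 39.8%, 38.8%, 7.44% and 26.9% in A0, A10, B0 and BA10. With cells of 9013 UMIs or more, 11 of 30 genes changed sign in B0 over A0 and 18 of 30 in BA10 over B0. Those past 2-fold over all cells were, in B0 over A0, Hydin (0.22), Cfap43 (0.00), Cfap44 (0.33), Rsph1 (0.25), Ccdc39 (0.23), Ccdc40 (0.17) and Drc1 (0.44), and in BA10 over B0, Dnah8 (-0.23), Dnah17 (-0.07), Spag17 (-0.40), Cfap69 (-0.23), Tekt2 (-0.44), Tekt4 (-0.13) and Drc1 (-0.38). Dnah3 in BA10 over B0 was 0.13 with each cell scaled to the same total, 1.25 without cluster 15 and 1.63 without cells outside the named classes. The cause was not tested. The remaining 93 summary values stayed near the main ones, A10 over A0 among them. With 1 library a group, precision beyond counting error is unknown.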
